A study of Mus musculus with 6 samples.

Results

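The genes described here encode the enzymes of the urea cycle and of amino acid breakdown in the liver. They are 37 named genes, grouped by the route they serve: the urea cycle, the glutamate-linked amino acids, tyrosine, tryptophan, histidine and serine, glycine, the branched-chain amino acids, lysine, and the sulfur amino acids. Of the 37, 34 had a probe annotated to that gene alone, and all 34 lay above the intensity filter and were tested among 13493 genes. Gls2, Sds and Sdsl were not analysed here.

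The livers came from male C57BL/6 mice, 8 weeks old before acclimatization, in 2 groups of 3 samples. The Vascepa group received Vascepa for 7 days and the vehicle group received vehicle, and every mouse was then fed high fat diet for 6 weeks, so no group without the diet was compared. Vascepa is a purified preparation of icosapent ethyl, which delivers eicosapentaenoic acid, a fish-oil fatty acid. RNA was measured on 6 Affymetrix arrays as log2 levels, and a difference is Vascepa minus vehicle on that scale. The labels do not say that the samples of a group were separate animals, so every p-value reflects sample-to-sample spread alone, which may be technical.

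Breakdown of amino acids releases ammonia, which hepatocytes around the portal vein turn into urea through a cycle that begins in the mitochondrion and ends in the cytosol. The carbon skeletons that remain feed glucose and ketone production. Most of these enzymes are used far more in the liver than in other organs. Glucagon, glucocorticoids and the supply of dietary protein are known to set the level of many of them, Tat among the best studied.

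No enzyme of the set passed the test between Vascepa and vehicle livers after adjustment. At an adjusted p under 0.05 (limma, Benjamini-Hochberg over all genes) 0 of 34 passed, against 0.0% of the 13493 genes tested, and the adjusted p of the 34 lay between 0.976 and 0.998. At an unadjusted p under 0.05 there was 1 of 34, Gcsh, against 2.68% of all genes. Gcsh, the lipoyl-carrying protein of the glycine cleavage system, averaged 5.19 in Vascepa and 4.45 in vehicle livers and was the only one of the 34 whose means differed by at least 1.5-fold, against 3.39% of all genes. The groups did not overlap in 3 of 34 enzymes, against 8.24% of all genes. In Amt and Kmo the Vascepa arrays all lay below the vehicle arrays, against 5.11% of all genes, and in Gcsh they all lay above, against 3.13%. With 3 arrays against 3, an exact permutation test cannot go below p = 0.10.

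In the means, 27 of the 34 enzymes were lower in Vascepa livers, against 60.1% of all genes tested. Their median difference was −0.17, beside −0.06 for all genes. This shift was present with every array set tried except the one that left out Vascepa replicate 3. Without Vascepa replicate 3, 16 of 34 were lower and the median difference was 0.02 for the enzymes and −0.02 for all genes. The widest intervals were those of Gldc and Cbs, whose 95% limits ran from −1.45 to 0.89 and from −1.47 to 0.84. The narrowest was that of Otc, from −0.31 to 0.44, so changes of this size in either direction could not be told from no change.

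**Figure D1:**
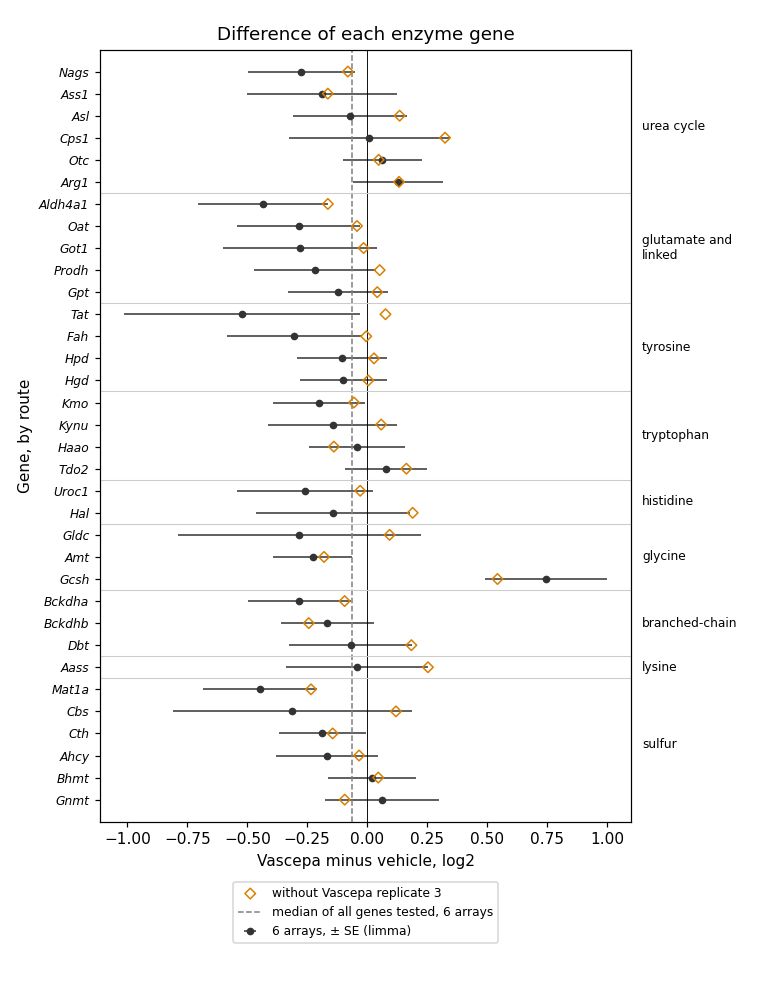
Vascepa minus vehicle difference of each of the 34 enzyme genes (log2, horizontal axis), grouped by route down the page. Black points are the limma estimates from 6 arrays with bars of ± 1 SE, open orange diamonds the estimates without Vascepa replicate 3, and the dashed line is the median of all genes tested (−0.06). Most open diamonds lie nearer 0 than the filled points, and Gcsh is the point farthest to the right, at 0.75.

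Vascepa replicate 3 was the lowest of the 6 arrays for 26 of the 34 enzymes, 76.5% of them, beside 38.8% of all genes. Relative to each gene's vehicle mean, the median of the enzymes lay at 0.07, −0.06 and −0.52 on Vascepa replicates 1, 2 and 3, and at 0.03, −0.07 and 0.03 on vehicle replicates 1, 2 and 3. Medians of all genes on the same arrays were 0.02, −0.05 and −0.12 for Vascepa and 0.01, −0.01 and 0.01 for vehicle. The enzymes were thus spread more widely among the Vascepa arrays, with a median SD of 0.39 in Vascepa and 0.16 in vehicle livers, beside 0.32 and 0.21 for all genes.

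A second feature ran across both groups. In 15 of 34 enzymes, 44.1%, replicate 1 was the highest array of its group in Vascepa and in vehicle livers alike, beside 25.2% of all genes. In 17 of 34, 50.0% of them, Vascepa replicate 3 and vehicle replicate 2 were the lowest of their groups, beside 28.9% of all genes. Cps1, Got1, Tat, Gldc and Cbs had the widest spread among vehicle livers and were the only 5 of the 34 that spanned at least 1.5-fold there, beside 27.8% of all genes. These array patterns and these 5 enzymes were singled out after their values were seen.

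**Figure D2:**
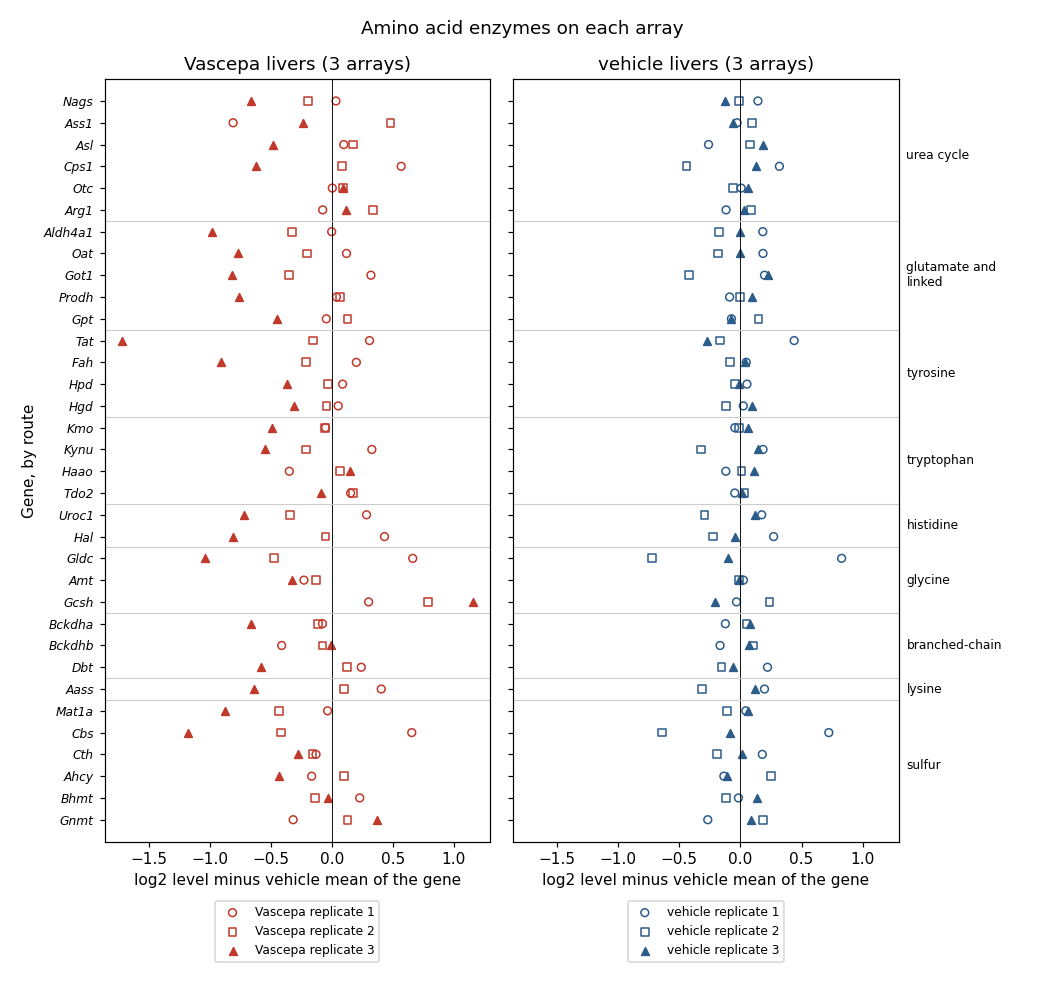
Level of each enzyme gene on each array minus the mean of the 3 vehicle arrays of that gene (log2, horizontal axis), with Vascepa arrays in the left panel and vehicle arrays in the right panel and genes grouped by route down the page. Filled triangles mark replicate 3, and in Vascepa livers they are the lowest point for 26 of the 34 genes. Gldc and Cbs are spread widely in both panels.

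Other RNA measures moved with Vascepa replicate 3. Probes of small nucleolar RNAs, 75 in all, averaged 5.42, 6.48 and 7.01 on Vascepa replicates 1, 2 and 3 and 5.57, 6.36 and 5.79 on vehicle replicates 1, 2 and 3. This array was also the least like the others, with a mean correlation of 0.938 across genes, beside 0.959 to 0.973 for the other 5. The 14 hepatocyte markers with a probe had medians of 0.00, −0.11 and −0.34 relative to their vehicle means in Vascepa livers and 0.01, −0.02 and 0.00 in vehicle livers. Of these 14 markers, 12 were lower in the Vascepa mean, beside 60.1% of all genes. In 4 of the 14 all Vascepa arrays lay below the vehicle arrays, beside 5.11% of all genes. Albumin itself read 13.33, 13.29 and 13.18 in Vascepa and 13.30, 13.30 and 13.32 in vehicle livers, so the defining marker of the labelled tissue was high on every array. Centring of arrays used another measure, the median log2 level of the 14 hepatocyte markers on each array. That level was 11.74, 11.66 and 11.28 in Vascepa and 11.72, 11.52 and 11.68 in vehicle livers. With each array centred on it, 23 of 34 enzymes were lower and their median difference was −0.08, beside 0.02 for all genes. That scaling moves all genes alike. With the small nucleolar RNA level as a covariate, 21 were lower and the median was −0.05, beside −0.03 for all genes. In a piece of liver, fewer hepatocytes and less RNA per hepatocyte cannot be told apart, and the part of these measures in the enzyme levels was not tested.

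Markers of other liver cells were present at modest levels on every array. The mean log2 level of 12 Kupffer and macrophage markers was 5.84, 6.14 and 6.33 in Vascepa and 6.34, 6.36 and 6.27 in vehicle livers. Of the 12, 10 were lower in the Vascepa mean, beside 60.1% of all genes. Marco and Lyz2 were higher, by 0.06 ± 0.20 and 0.19 ± 0.50 (SE). Vsig4, Cd68 and Timd4, 3 of the 10, had an unadjusted limma p under 0.05, beside 2.68% of all genes, and 0 passed after adjustment. The 10 endothelial markers averaged 6.03, 5.84 and 5.58 in Vascepa and 6.02, 5.91 and 5.89 in vehicle livers. The 10 stellate cell markers averaged 5.94, 5.53 and 5.45 in Vascepa and 5.81, 5.68 and 5.76 in vehicle livers, and the 5 cholangiocyte markers averaged between 2.77 and 3.25 in Vascepa and between 2.85 and 3.24 in vehicle livers. The 7 skeletal muscle markers averaged 2.93 to 3.09 in Vascepa and 2.78 to 2.97 in vehicle livers, and the 7 pancreatic acinar markers 2.68 to 2.80 in Vascepa and 2.45 to 2.68 in vehicle livers, near the filter level of 2.65. Of the 5 muscle markers tested, 4 were higher in the Vascepa mean, beside 5389 of all 13493 genes. Their median difference was 0.41. Acta1, skeletal muscle actin, differed by 0.52 ± 0.18 (SE), with all Vascepa arrays above the vehicle arrays, beside 3.13% of all genes. Its unadjusted limma p was also under 0.05, beside 2.68% of all genes, and it did not pass after adjustment. Tnnt3, of the same list, went the other way, by −0.12 ± 0.16 (SE). All its Vascepa arrays lay below the vehicle arrays, beside 5.11% of all genes. Of these lists of other cell types, skeletal muscle and pancreas had their highest mean on Vascepa replicate 3. The median of all probes was also highest on that array, at 2.81, beside 2.63 and 2.70 on Vascepa replicates 1 and 2. It was 2.615, 2.67 and 2.62 on vehicle replicates 1, 2 and 3. Ckm and Mb were highest on Vascepa replicate 3, at 3.71 and 3.94. Acta1 read 4.42 there, under its 4.67 and 4.75 on Vascepa replicates 1 and 2. The part of these lists in the enzyme levels was not tested.

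**Figure D3:**
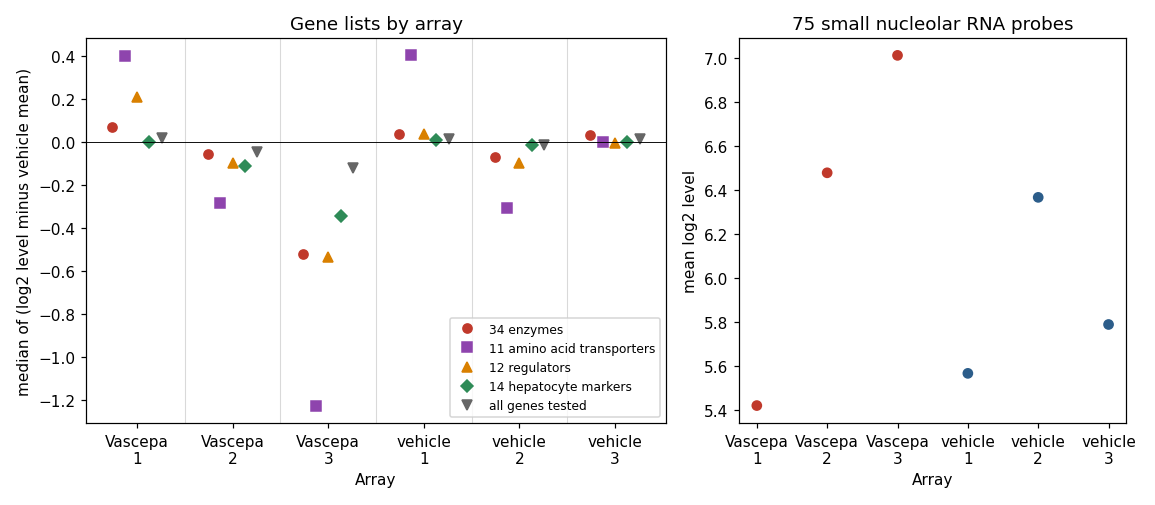
Left, the median over each gene list of the log2 level minus the gene's vehicle mean, for each of the 6 arrays, with Vascepa arrays to the left of vehicle arrays and a symbol for each list. Right, the mean log2 level of the small nucleolar RNA probes on the same arrays. Vascepa replicate 3 has the lowest enzyme median (−0.52) and the highest small nucleolar RNA level (7.01).

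Promoters are shown for 4 enzymes that mark the extremes of the set: Gcsh and Tat, with the highest and the lowest difference, Gldc, with the widest vehicle range, and Otc, with the narrowest interval. RefSeq promoter windows (GRCm38.p6) were matched for 26 of the 37 genes, in 27 windows. The 250 bases before the start are shown (for Tat and Otc, a start that is not the outermost one of the gene) on the gene's own strand, at chr8:116993499-116993748 (minus strand) for Gcsh, chr8:109990186-109990435 (plus strand) for Tat, chr19:30175442-30175691 (minus strand) for Gldc and chrX:10252055-10252304 (plus strand) for Otc. Capitals mark the CCAAT box letters CCAAT on either strand.
Gcsh: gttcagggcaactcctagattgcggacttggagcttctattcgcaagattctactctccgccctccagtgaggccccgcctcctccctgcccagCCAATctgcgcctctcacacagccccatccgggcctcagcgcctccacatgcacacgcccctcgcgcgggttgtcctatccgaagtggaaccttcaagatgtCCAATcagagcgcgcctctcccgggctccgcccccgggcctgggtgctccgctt
Tat: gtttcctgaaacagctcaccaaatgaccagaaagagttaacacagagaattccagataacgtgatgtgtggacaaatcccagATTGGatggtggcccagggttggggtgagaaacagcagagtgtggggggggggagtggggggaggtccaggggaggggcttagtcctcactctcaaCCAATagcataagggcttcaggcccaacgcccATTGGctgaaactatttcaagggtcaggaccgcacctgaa
Gldc: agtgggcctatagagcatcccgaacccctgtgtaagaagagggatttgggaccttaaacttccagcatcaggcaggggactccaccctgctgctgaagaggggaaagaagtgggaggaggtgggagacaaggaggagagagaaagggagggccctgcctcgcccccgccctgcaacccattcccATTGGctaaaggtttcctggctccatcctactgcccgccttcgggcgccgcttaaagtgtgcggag
Otc: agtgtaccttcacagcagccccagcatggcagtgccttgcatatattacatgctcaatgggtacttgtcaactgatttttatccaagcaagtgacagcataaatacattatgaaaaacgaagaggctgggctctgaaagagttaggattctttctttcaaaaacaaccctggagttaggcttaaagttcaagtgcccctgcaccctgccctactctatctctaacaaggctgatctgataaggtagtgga

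The Gcsh window was the richest in CG dinucleotides of these, with 18 in a sequence of 64.4% G and C, and held 2 matches to CCAAT. Tat had 3 CG dinucleotides and 3 matches, Gldc 8 and 1, and Otc 1 and 0. CCAAT occurred in 17 of the 27 enzyme windows, 63.0%, beside 33.8% of all 32851 windows, and was added to the search after the first look. The TATA box letters TATAAA, also added later, occurred in 3 of the 27 windows (Tdo2, Hal and Hgd), 11.1%, near the 12.4% of all windows. The cyclic AMP response element TGACGTCA, the C/EBP letters TTGCGCAA and the direct repeat of AGGTCA with 1 base between, all searched on both strands, occurred in none of the 27 windows, beside 1.55%, 0.164% and 0.0335% of all windows. These matches describe letters in a short window and say nothing of binding.

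The urea cycle had 3 of 6 enzymes lower and 3 higher in Vascepa means, with a median difference of −0.03. Cps1, which fixes ammonia as carbamoyl phosphate in the first step, read 12.23, 11.74 and 11.04 in Vascepa and 11.98, 11.22 and 11.78 in vehicle livers. Its groups overlapped throughout, and the 2.28-fold span within Vascepa livers and 1.69-fold span within vehicle livers were larger than the difference of 0.01 ± 0.34 (SE), which turned to −0.27 without Vascepa replicate 1, −0.03 without Vascepa replicate 2, −0.21 without vehicle replicate 2 and −0.07 with arrays centred on their medians. Without Vascepa replicate 3 the Cps1 difference was 0.32. Otc, which adds ornithine to carbamoyl phosphate to make citrulline, was the steadiest enzyme, at 10.70, 10.79 and 10.79 in Vascepa and 10.70, 10.63 and 10.75 in vehicle livers (0.06 ± 0.16, SE, and −0.01 with arrays centred on their medians). Nearly level arrays in both groups set Otc apart from Cps1, its neighbour in the mitochondrion.

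Arg1, the arginase that releases urea, read 10.995, 11.41 and 11.19 in Vascepa and 10.95, 11.16 and 11.10 in vehicle livers (0.13 ± 0.19, SE, and 0.02 without Vascepa replicate 2 and 0.07 without vehicle replicate 1). Nags, whose product N-acetylglutamate switches on the Cps1 enzyme, read 7.73, 7.5001 and 7.03 in Vascepa and 7.84, 7.68 and 7.57 in vehicle livers. Nags differed by −0.27 ± 0.22 (SE) and had the smallest p of the cycle (limma, adjusted p = 0.976), and without Vascepa replicate 3 the difference was −0.08. A further Nags probe read dimmer and differed by −0.51, also with its lowest value, 4.54, on Vascepa replicate 3. Asl, which splits argininosuccinate into arginine and fumarate, differed by −0.07 ± 0.24 (SE), and this turned to 0.14 without Vascepa replicate 3, 0.02 without vehicle replicate 3 and 0.01 with arrays centred on hepatocyte markers. Ass1, which makes argininosuccinate, read only 2.97, 4.26 and 3.55 in Vascepa and 3.75, 3.87 and 3.72 in vehicle livers, close to the filter level of 2.65 although the gene is abundantly used by hepatocytes. Its difference was −0.19 ± 0.31 (SE) and turned to 0.12 without Vascepa replicate 1. Why the probe read dim was not tested.

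The glutamate-linked enzymes, which move nitrogen between amino acids, were lower in Vascepa means in 5 of 5 cases, with a median of −0.28 that was −0.02 without Vascepa replicate 3. Aldh4a1, the mitochondrial dehydrogenase that ends proline breakdown in glutamate, read 7.82, 7.497 and 6.85 in Vascepa and 8.01, 7.65 and 7.82 in vehicle livers. Vascepa replicate 1 lay among the vehicle arrays, and the difference of −0.44 ± 0.27 (SE; limma, adjusted p = 0.976) was −0.16 without Vascepa replicate 3. Oat, the aminotransferase that links ornithine to glutamate, read 10.64, 10.32 and 9.75 in Vascepa and 10.71, 10.34 and 10.52 in vehicle livers (−0.29 ± 0.26, SE, and −0.04 without Vascepa replicate 3).

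Got1, the cytosolic aspartate aminotransferase, read 9.35, 8.68 and 8.21 in Vascepa and 9.22, 8.61 and 9.25 in vehicle livers. Vascepa replicate 1 lay above all vehicle arrays and Vascepa replicate 2 above vehicle replicate 2, and the difference of −0.28 ± 0.32 (SE) was −0.02 without Vascepa replicate 3 and 0.01 with the small nucleolar RNA covariate. Prodh, which starts proline breakdown, and Gpt, the alanine aminotransferase, differed by −0.22 ± 0.25 and −0.12 ± 0.21 (SE). Without Vascepa replicate 3 these became 0.05 and 0.04.

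The 4 tyrosine enzymes act in sequence and were all lower in Vascepa means, with a median of −0.20 that was 0.02 without Vascepa replicate 3. Tat, the aminotransferase that opens the route, read 12.20, 11.74 and 10.17 in Vascepa and 12.33, 11.72 and 11.62 in vehicle livers. Vascepa replicates 1 and 2 lay within the vehicle range, while replicate 3 lay 4.07-fold under replicate 1, the widest span of any of the 34 within a group. Tat had the lowest difference of the 34, −0.52 ± 0.49 (SE; limma, adjusted p = 0.976), which was 0.08 without that array and −0.94 without Vascepa replicate 1.

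Fah, the hydrolase that closes the tyrosine route, read 10.04, 9.63 and 8.94 in Vascepa and 9.89, 9.76 and 9.88 in vehicle livers. Its difference was −0.30 ± 0.28 (SE) and shrank to −0.0040 without Vascepa replicate 3. Between them, Hpd, the dioxygenase that makes homogentisate, and Hgd, the dioxygenase that opens the ring, differed by −0.10 ± 0.19 and −0.10 ± 0.18 (SE), and by 0.03 and 0.0044 without Vascepa replicate 3. Hpd spanned 1.07-fold among vehicle livers, beside 1.64-fold for Tat, so successive steps of this route differed in how steady they were.

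Tryptophan enzymes had a median within-group SD of 0.19, beside 0.30 for the 34. Kynu was less steady, and spanned 1.83-fold within Vascepa and 1.42-fold within vehicle livers. The median difference of the route was −0.09, with 3 of 4 lower in Vascepa means. Tdo2, the dioxygenase that commits tryptophan to kynurenine, was the only one higher in the mean. It differed by 0.08 ± 0.17 (SE), with 95% limits of −0.32 and 0.48. Kmo, which hydroxylates kynurenine, read 9.61, 9.60 and 9.17 in Vascepa and 9.62, 9.65 and 9.73 in vehicle livers. The Kmo groups did not overlap, but Vascepa replicate 1 and vehicle replicate 1 were nearly level, and the difference of −0.20 ± 0.19 (SE; limma, adjusted p = 0.976) was −0.06 without Vascepa replicate 3. Kynu, the kynureninase, read 8.78, 8.24 and 7.90 in Vascepa and 8.63, 8.12 and 8.59 in vehicle livers (−0.14 ± 0.27, SE, and 0.06 without Vascepa replicate 3). Haao, which acts after Kynu towards quinolinate and NAD, was, with Otc, Gcsh and Gnmt, among the 4 enzymes highest on Vascepa replicate 3. Haao differed by −0.04 ± 0.20 (SE), which turned to 0.11 without Vascepa replicate 1, 0.01 without vehicle replicate 3 and 0.04 with arrays centred on hepatocyte markers.

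Within each group, both histidine enzymes had the same array order. Hal, the ammonia lyase that starts the route, read 9.52, 9.04 and 8.28 in Vascepa and 9.36, 8.87 and 9.05 in vehicle livers. Uroc1, which takes the product of Hal, read 8.76, 8.13 and 7.75 in Vascepa and 8.65, 8.18 and 8.60 in vehicle livers. Replicate 1 was the highest of its group in Vascepa and in vehicle livers for each gene, and vehicle replicate 2 the lowest of its group. The differences were −0.14 ± 0.32 for Hal and −0.26 ± 0.28 for Uroc1 (SE), and without Vascepa replicate 3 they were 0.19 and −0.03. Sds and Sdsl, of serine breakdown, were not analysed here.

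The glycine cleavage system, a mitochondrial complex that splits glycine into carbon dioxide, ammonia and a folate-bound carbon, held both the highest enzyme and a non-overlapping lower one. Gcsh read 4.75, 5.23 and 5.60 in Vascepa and 4.41, 4.68 and 4.24 in vehicle livers. Every Vascepa array lay above every vehicle array, the nearest pair being 4.75 on Vascepa replicate 1 and 4.68 on vehicle replicate 2. The difference was 0.75 ± 0.25 (SE), 1.68-fold, with an adjusted p of 0.976 (limma). It was between 0.54 without Vascepa replicate 3 and 0.97 without Vascepa replicate 1. With the small nucleolar RNA level as a covariate it was 0.55, and Gcsh and those RNAs were both highest on Vascepa replicate 3. The part of that measure in the Gcsh reading was not tested.

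Amt, the aminomethyltransferase of the same complex, read 6.30, 6.39 and 6.20 in Vascepa and 6.55, 6.51 and 6.51 in vehicle livers. All Vascepa arrays lay below the vehicle arrays, and the vehicle arrays lay within 1.03-fold of each other. The difference of −0.23 ± 0.17 (SE; limma, adjusted p = 0.976) lay between −0.28 and −0.18 when single arrays were left out. Gldc, the decarboxylase of the complex, read 8.65, 7.52 and 6.95 in Vascepa and 8.82, 7.27 and 7.89 in vehicle livers. It spanned 3.25-fold within Vascepa and 2.93-fold within vehicle livers, far more than its difference of −0.28 ± 0.51 (SE), which turned to 0.09 without Vascepa replicate 3 and 0.13 without vehicle replicate 1. Across the Vascepa arrays, Gcsh was highest on replicate 3, where Gldc and Amt were lowest.

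Branched-chain breakdown was represented by subunits of the mitochondrial branched-chain ketoacid dehydrogenase, the committed step. Bckdha and Bckdhb, the alpha and beta subunits of its decarboxylase, were lower in Vascepa means. Bckdha read 7.46, 7.43 and 6.87 in Vascepa and 7.41, 7.59 and 7.61 in vehicle livers (−0.28 ± 0.21, SE, and −0.09 without Vascepa replicate 3). Bckdhb read 7.94, 8.28 and 8.34 in Vascepa and 8.19, 8.46 and 8.42 in vehicle livers (−0.17 ± 0.19, SE, −0.24 without Vascepa replicate 3 and −0.04 without Vascepa replicate 1). Its lowest array was Vascepa replicate 1, unlike that of its partner. Dbt, the transacylase core, differed by −0.07 ± 0.26 (SE), which turned to 0.18 without Vascepa replicate 3, 0.04 without vehicle replicate 1 and 0.01 with arrays centred on hepatocyte markers. Aass, which starts lysine breakdown, read 10.22, 9.92 and 9.18 in Vascepa and 10.01, 9.499 and 9.94 in vehicle livers. Its difference was −0.04 ± 0.30 (SE). That became 0.25 without Vascepa replicate 3, 0.06 and 0.02 without vehicle replicates 1 and 3, and 0.04 with arrays centred on hepatocyte markers.

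The sulfur route turns methionine into the methyl donor S-adenosylmethionine and then, through homocysteine, into cysteine. Mat1a, which makes the methyl donor in hepatocytes, read 11.84, 11.44 and 11.01 in Vascepa and 11.92, 11.77 and 11.94 in vehicle livers. Only Vascepa replicate 1 reached the vehicle range, and the difference of −0.45 ± 0.24 (SE; limma, adjusted p = 0.976), the lowest after Tat, was −0.23 without Vascepa replicate 3. Cth, the lyase that yields cysteine, read 10.36, 10.33 and 10.22 in Vascepa and 10.67, 10.30 and 10.5004 in vehicle livers (−0.19 ± 0.18, SE, and −0.14 without Vascepa replicate 3). Cbs, which joins homocysteine to serine one step earlier, read 9.49, 8.42 and 7.66 in Vascepa and 9.56, 8.20 and 8.75 in vehicle livers. Its span of 3.56-fold within Vascepa and 2.57-fold within vehicle livers was second to that of Gldc among vehicle livers, and the difference of −0.31 ± 0.50 (SE) turned to 0.12 without Vascepa replicate 3 and 0.05 without vehicle replicate 1.

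Gnmt, which spends the methyl donor on glycine, had the opposite array order to Cbs. Gnmt read 10.94, 11.39 and 11.63 in Vascepa and 10.99, 11.44 and 11.34 in vehicle livers, lowest on replicate 1 of each group. Its difference was 0.06 ± 0.24 (SE), and this turned to −0.09 without Vascepa replicate 3, −0.07 without vehicle replicate 1 and −0.01 with arrays centred on their medians. Ahcy, the hydrolase that releases homocysteine, differed by −0.17 ± 0.21 (SE), which was −0.03 without Vascepa replicate 3 and −0.04 without vehicle replicate 2. A further, dimmer Ahcy probe differed by −0.09. Bhmt, which returns homocysteine to methionine with betaine, read between 4.18 and 4.55 in Vascepa and between 4.20 and 4.45 in vehicle livers. Those readings are dim for a gene that hepatocytes use abundantly, and the difference of 0.02 ± 0.19 (SE) turned to −0.08 without Vascepa replicate 1, −0.04 without vehicle replicate 2 and −0.06 with arrays centred on their medians.

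Of 62 further enzymes of the same routes, tested in 5 lists, 0 passed at the adjusted threshold and 53 were lower in Vascepa means, beside 60.1% of all genes. Each list had its lowest median on Vascepa replicate 3, between −0.58 and −0.33 from the vehicle means. The count without that array was not made. Dao, the peroxisomal oxidase of D-amino acids, was the only one of the 62 past the unadjusted threshold (limma, adjusted p = 0.976), beside 2.68% of all genes. Dao read 3.07, 2.87 and 3.48 in Vascepa and 2.63, 2.60 and 2.38 in vehicle livers. Its vehicle readings lay under the filter level, so it was tested only through its higher Vascepa readings, which limits what its p-value means. Shmt2, the mitochondrial serine hydroxymethyltransferase that feeds the glycine pool, differed by −0.69 ± 0.40 (SE), with its lowest reading, 7.54, on Vascepa replicate 3. Bcat2, the branched-chain aminotransferase used mainly outside hepatocytes, read 3.99, 3.87 and 3.93 in Vascepa and 4.34, 4.23 and 4.36 in vehicle livers (−0.38 ± 0.16, SE). Bckdk, the kinase that switches the branched-chain dehydrogenase off, differed by −0.29 ± 0.19, the asparaginase Aspg by −0.25 ± 0.17 and the agmatinase Agmat by −0.21 ± 0.17 (SE). In Bcat2, Bckdk, Aspg and Agmat all Vascepa arrays lay below the vehicle arrays, beside 5.11% of all genes. In Dao they all lay above, beside 3.13% of all genes. Ido2 and Kyat3, of the tryptophan route, differed by −0.46 ± 0.35 and −0.27 ± 0.22 (SE), and Gamt and Suox, of methyl transfer and sulfite oxidation, by −0.23 ± 0.18 and −0.41 ± 0.35 (SE).

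Regulators and transporters also had their lowest medians on Vascepa replicate 3. Of 12 regulators of these enzymes 10 were lower in Vascepa means, beside 60.1% of all genes, and 0 passed, beside 0.0%. Ppara and Hnf4a, nuclear receptors of hepatocytes, differed by −0.38 ± 0.30 and −0.38 ± 0.35 (SE). All 11 amino acid transporters tested were lower in the mean, beside the same 60.1% of all genes, with a median difference of −0.38, and 0 passed. Their median lay at 0.40, −0.29 and −1.23 from the vehicle means on Vascepa replicates 1, 2 and 3 and at 0.40, −0.31 and 0.00 on vehicle replicates 1, 2 and 3. Slc3a2, the heavy chain shared by several transporters, read 6.55, 6.13 and 5.37 in Vascepa and 7.00, 6.06 and 6.73 in vehicle livers (−0.58 ± 0.36, SE). Slc1a4, a carrier of neutral amino acids, differed by −0.39 ± 0.31 (SE). List medians of hepatocyte genes of both zones of the lobule were also lowest on Vascepa replicate 3, with medians of −0.55 for 9 periportal and −0.61 for 12 pericentral markers, none of the 34 enzymes among them.

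**Figure D4:**
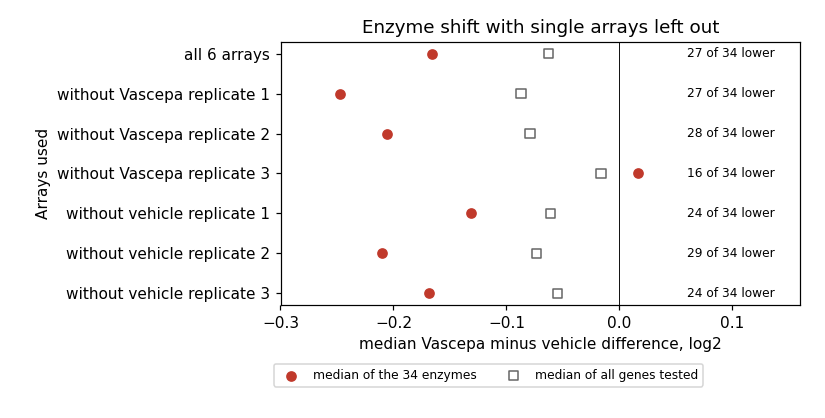
Median Vascepa minus vehicle difference (log2, horizontal axis) of the 34 enzymes (filled circles) and of all genes tested (open squares), with all 6 arrays and with each array left out in turn, and the count of enzymes lower in the Vascepa mean at the right. Only the estimate without Vascepa replicate 3 lies above 0, at 0.02 with 16 of 34 lower.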

How the data were processed

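Liver RNA of 6 samples (3 Vascepa, 3 vehicle) was hybridised as biotin-labelled target to Affymetrix arrays. The authors deposited log2 values per transcript cluster, made with Affymetrix Expression Console and RMA per the submitters' processing notes, with versions not given in those sources. RMA compresses differences of dim probes. No scanner files or scan dates were used, so batches were not tested, and the number of arrays limits the precision. Of 41345 probes, 23521 had 1 gene symbol in the platform annotation, 1814 several and 16010 none; no enzyme's probe had several. Symbols were updated by gene ID (23328 probes, GRCm38.p6 RefSeq table). A gene was its brightest probe on average, kept where its mean reached the median probe (2.65). limma 3.58.1 in R 4.3.3 (lmFit, eBayes) compared the groups without covariates over 13493 genes, with Benjamini-Hochberg adjustment, and was tested on simulated data. Members, lists and tests were chosen with earlier results of these data known. All 34 enzymes are named. Values on every array are given for Cps1, Ass1, Tat, Got1, the 2 of smallest p per route (lysine has 1) and any enzyme with non-overlapping groups or unadjusted p under 0.05; those given beyond this (Otc, Gldc, Cbs, Gnmt and, outside the 34, Dao, Bcat2 and Slc3a2) were chosen after their values were seen. Of the lists of other enzymes, regulators and transporters, the 2 of smallest p and any under 0.05 are named; single marker genes were named after their values were seen. Alternatives varied the filter, scaling, probe choice, variance model, covariates and arrays.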

Additional observations from a re-analysis of the deposited data

How the results depend on the processing

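At the adjusted threshold 0 of 34 enzymes passed under every alternative run except array quality weights, which gave Vascepa replicate 2 a weight of 39.5 and the other arrays at most 2.33. There 7 enzymes passed (Gcsh, Mat1a, Got1, Uroc1, Arg1, Ass1 and Aldh4a1) beside 30.4% of all genes, and 8 had an unadjusted p under 0.05, beside 43.7% of all genes. The cause was not tested. With single arrays left out, 0 to 3 enzymes had an unadjusted p under 0.05, with 3 when Vascepa replicate 1 was left out, beside 2018 of all 13493 genes. From 16 (without Vascepa replicate 3) to 29 (without vehicle replicate 2) were lower in the mean, and in 3 to 11 the groups did not overlap, with 11 without Vascepa replicate 1, beside 31.8% of all genes there and 13.1% to 17.1% with another array left out; overlap was not counted under the other alternatives. The count of lower enzymes was 20 to 31 under the other alternatives, and the median difference lay between −0.25 and 0.02 over all of them. With the replicate number as a replicate block 0 enzymes passed and 1 had an unadjusted p under 0.05, beside 3.25% of all genes. Each number has 1 array per group, so this block cannot change a difference or its direction. Deviations of same-numbered arrays correlated at 0.606, 0.108 and −0.129 for numbers 1, 2 and 3, and Vascepa replicate 3 correlated best with vehicle replicate 2 (0.574), so the numbers were not taken to pair the samples. In 14 enzymes the direction held under every alternative. With arrays centred on their medians the difference turned to −0.0673 in Cps1, −0.0129 in Otc, −0.0141 in Gnmt and −0.0563 in Bhmt, and with quantile normalization again to −0.0341 in Cps1. Centring on hepatocyte markers turned it to 0.0115 in Asl, 0.0394 in Haao, 0.0132 in Dbt and 0.0400 in Aass. Array quality weights turned it to 0.506 in Ass1, 0.0805 in Asl, 0.169 in Gpt, 0.0164 in Prodh, 0.0114 in Haao, 0.152 in Dbt, 0.0269 in Aass, 0.161 in Ahcy and −0.207 in Bhmt. The small nucleolar RNA covariate turned it to 0.0075 in Got1, 0.0820 in Kynu, 0.133 in Hal, 0.197 in Gldc, 0.108 in Dbt, 0.201 in Aass, −0.114 in Gnmt and 0.170 in Cbs. With single arrays left out the difference ran from −0.271 to 0.325 in Cps1, −0.521 to 0.123 in Ass1, −0.202 to 0.135 in Asl, −0.249 to 0.0418 in Gpt, −0.361 to 0.0520 in Prodh, −0.937 to 0.0762 in Tat, −0.201 to 0.0283 in Hpd, −0.175 to 0.0044 in Hgd, −0.379 to 0.0582 in Kynu, −0.139 to 0.109 in Haao, −0.431 to 0.190 in Hal, −0.756 to 0.131 in Gldc, −0.225 to 0.184 in Dbt, −0.266 to 0.253 in Aass, −0.0938 to 0.251 in Gnmt, −0.0845 to 0.0976 in Bhmt and −0.795 to 0.120 in Cbs. Of enzymes that kept their sign there, Arg1 ran from 0.0224 to 0.230, Bckdhb from −0.250 to −0.0434, Ahcy from −0.299 to −0.0340, Cth from −0.283 to −0.0979, Tdo2 from 0.0332 to 0.163, Otc from 0.0316 to 0.0926, Nags from −0.429 to −0.0808, Oat from −0.488 to −0.0426, Fah from −0.557 to −0.0040, Got1 from −0.583 to −0.0152, Uroc1 from −0.533 to −0.0294, Aldh4a1 from −0.653 to −0.164, Mat1a from −0.653 to −0.235, Bckdha from −0.387 to −0.0942 and Kmo from −0.276 to −0.0553. The cause of these turns was not tested. Ass1 and Bhmt read dim and were under the 75th percentile filter.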
